A study of Mus musculus with 2 samples.

Results

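Interferon, innate immune and Trim genes were followed in a table of RNA recovered with an antibody against HP1 alpha, the heterochromatin protein encoded by Cbx5, by enhanced crosslinking and immunoprecipitation (eCLIP) from NIH3T3, an established mouse fibroblast line. Both libraries came from cells with no treatment named that were crosslinked with ultraviolet light and digested with RNase I, and RNA was taken from a membrane region above the HP1 alpha band. The HP1 alpha library was precipitated with that antibody, and the input library is labelled as having no antibody. The deposited columns are headed MEF, with HP1 or mock, although the labels name NIH3T3 and Input. Each group had 1 library, so no difference could be set against the spread between replicates. The members were all listed genes whose symbols carry a fixed set of prefixes: Trim followed by a digit (Trim28 excepted), the interferon-stimulated prefixes Ifi, Oas, Mx, Isg and Gbp, cytokine receptor, Stat, Irf, Tnf, Traf, NF-kappaB and pattern receptor prefixes, a few single genes such as Adar, Samhd1 and Znfx1, galectins, and the H2 histocompatibility genes. They were 77 of the 3134 genes in the table.

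Cells sense viral or misplaced nucleic acid through receptors such as RIG-I and MDA5, whose signals reach IRF and NF-kappaB transcription factors and induce type I interferons. Secreted interferon binds the Ifnar1 and Ifnar2 receptor chains, activates a transcription complex that holds Irf9, and through it induces interferon-stimulated genes that degrade, edit or sequester foreign RNA or block virus entry. Trim proteins are mostly RING-type ubiquitin ligases, and several of them tune these pathways. Fibroblasts carry this machinery and can respond to interferon without immune cells.

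The table lists genes with at least 100 counts in 1 of the 2 libraries, and its listed counts sum to 513965 with HP1 alpha and 830031 for the input. These sums are not sequencing depths. A gene missing from the table, such as Tlr3, Isg15 or Tbk1, is therefore not shown to be without RNA. Of the fibroblast markers, 13 of 16 were listed, holding 1.62% of the HP1 alpha counts and 2.06% of the input counts, and Thy1, Pdgfra and Lox were not. Of the markers of immune, epithelial and endothelial cells, 0 of 12, 0 of 4 and 0 of 3 were listed. Counts were divided by the listed total of their library to give counts per 1000000 (CPM), and the ratio of HP1 alpha over input is given with an exact 95% interval in brackets. The intervals cover counting error only, because each group had 1 library. How PCR copies were handled is not given in the sources used here, and copies counted as separate molecules would make the intervals too narrow. A count is not a level per length of RNA, so genes are compared by their ratios and not by their counts.

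As a group the members lay near the middle of the listed RNAs, slightly toward the input. They held 2.14% of the HP1 alpha counts (2.10 to 2.18) and 2.41% of the input counts (2.38 to 2.45). Their median ratio was 0.830, beside 0.867 over all listed genes, and 18 of the 77 had a ratio above 1, or 23.4%, beside 30.9% of all listed genes. Past 2-fold with an interval that excluded 1, 1 member was higher, Trim30d, and 1 was lower, Il17rc, which are 1.30% each beside a background of 2.36% higher and 0.83% lower. Past 1.5-fold, 3 members were higher (Trim30d, Trim30a and Adarb1) and 9 were lower, beside 7.63% and 12.3% of all listed genes. The 3 higher members were also the only members with more HP1 alpha counts than input counts. With no fold required, intervals lay above 1 for 6 members and below 1 for 31, or 7.79% and 40.3%, beside 15.4% and 32.6% of all listed genes. For 14 members, 7 of these 31 among them, the HP1 alpha count was so low that they were listed through the input and could only have a ratio below 1. Scaling the libraries by TMM or DESeq2 factors multiplied every ratio by 1.15 or 1.16, after which Trim30a and Trim30d were past 2-fold and no member was 2-fold lower. Intervals then lay above 1 for 10 or 11 members and below 1 for 10, beside 23.3% or 23.9% and 13.7% or 12.4% of all listed genes.

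**Figure D1:**
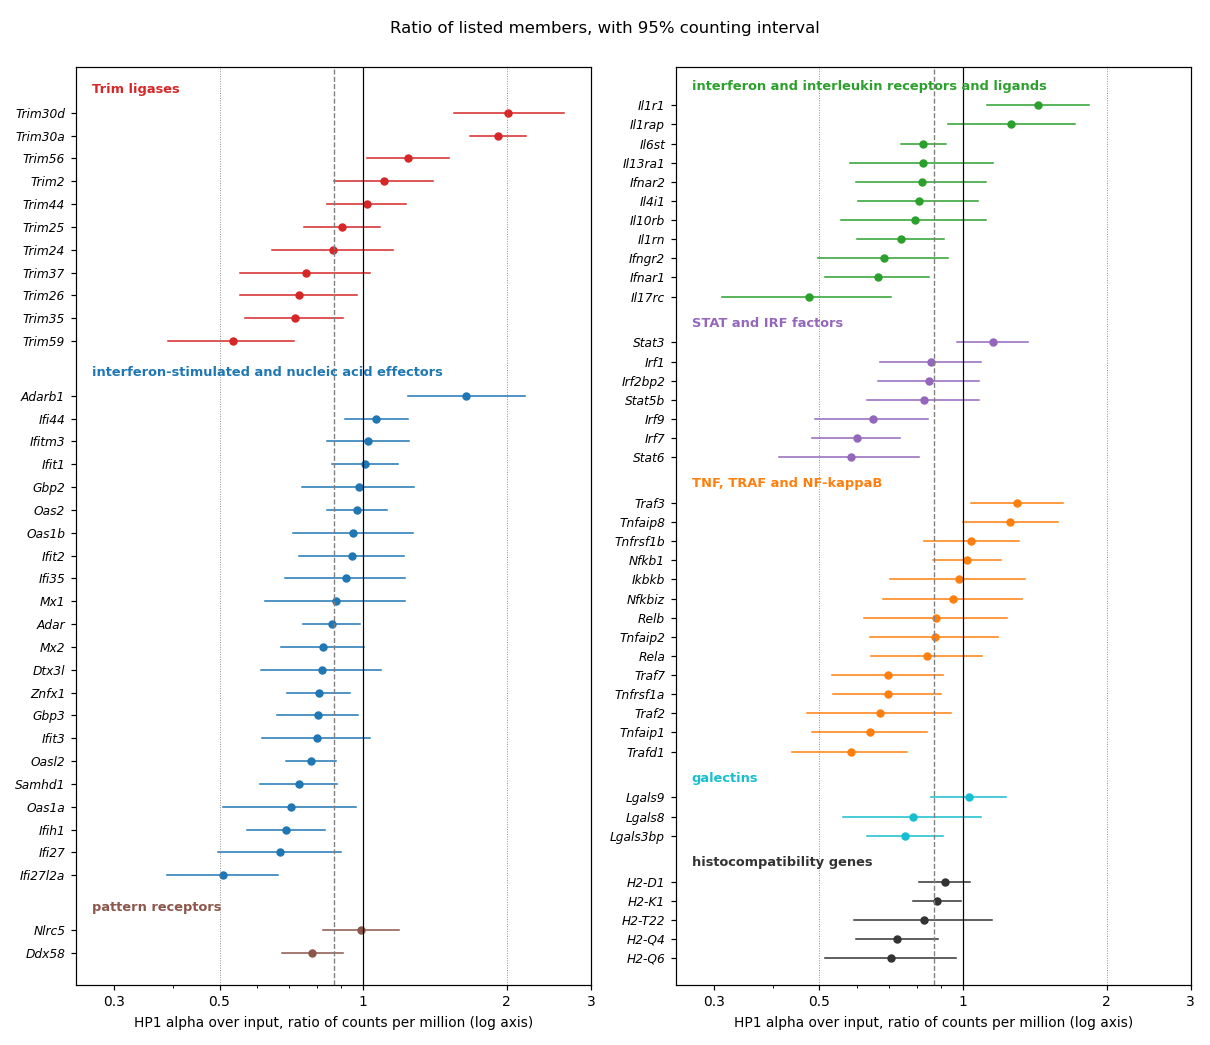
Ratio of HP1 alpha over input (log axis) for the members reported by name, by role, with points for the ratio and bars for the 95% counting interval. The solid line marks a ratio of 1, the dashed line the median of all listed genes (0.867) and the dotted lines 2-fold. Trim30d and Trim30a stand to the right of all others at 2.01 and 1.91, and Il17rc is the lowest at 0.476.

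Among the 11 Trim genes, the neighbouring paralogs Trim30a and Trim30d stood apart. Trim30a, which in mouse restrains Toll-like receptor signalling to NF-kappaB, lies at chr7:104409025-104465193 (GRCm38.p6, ENSMUSG00000030921.12). It had 474 HP1 alpha counts, against 400 input counts, or 922 CPM with HP1 alpha and 482 CPM in the input, and a ratio of 1.91 (1.67 to 2.19). Trim30d (ENSMUSG00000057596.9) lies 4820 bases further along at chr7:104470014-104507853 and had 131 HP1 alpha counts, against 105 input counts, or 255 CPM with HP1 alpha and 127 CPM in the input, with a ratio of 2.01 (1.55 to 2.63). Among the ratios of all listed genes they stood at percentiles of 97.2 and 97.7. The ratio of Trim30a over that of Trim30d was 0.950 (0.703 to 1.28), an interval that includes 1. Against the pooled counts of the other 9 Trim genes, the ratio of Trim30a was 2.14 times as high (1.83 to 2.50) and that of Trim30d 2.25 times (1.71 to 2.97). The authors' deposited table gives folds of 1.97 for Trim30a and 2.07 for Trim30d, scaled by total mapped reads.

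The Trim30 genes belong to a cluster of Trim genes on chromosome 7, of which RefSeq places 11, with 1 transcribed pseudogene among them, from Trim6 to Trim30e-ps1. Of these 11, only Trim30a and Trim30d were listed. Trim30a also overlaps the annotated gene Gm25405 and Trim30d overlaps Gm16464, and how reads in such overlaps were assigned is not given. How reads that fit several copies were counted is not given in the sources used here, so the counts of the pair may be shared and the 2 genes are not independent observations. Whether reads fit both copies could not be examined. Their start regions were compared, which lie mostly before the transcribed sequence and do not measure how alike the counted RNAs are. The promoter windows of Trim30a (chr7:104465144-104465443, minus strand) and Trim30d (chr7:104507800-104508099, minus strand), from RefSeq GRCm38.p6, run from 250 bases before to 50 bases after the annotated start and are printed 5′ to 3′ along the gene. Capitals mark a match to the interferon-stimulated response element (ISRE), the site that the interferon-activated complex with Irf9 binds, searched as GAAANNGAAACT, which reads AGTTTCNNTTTC on the other strand.
Trim30a: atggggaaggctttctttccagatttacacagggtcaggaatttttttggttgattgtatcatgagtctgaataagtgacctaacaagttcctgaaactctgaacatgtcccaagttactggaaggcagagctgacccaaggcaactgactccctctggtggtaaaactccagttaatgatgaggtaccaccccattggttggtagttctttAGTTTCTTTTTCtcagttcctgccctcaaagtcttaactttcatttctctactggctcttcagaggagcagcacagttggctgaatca
Trim30d: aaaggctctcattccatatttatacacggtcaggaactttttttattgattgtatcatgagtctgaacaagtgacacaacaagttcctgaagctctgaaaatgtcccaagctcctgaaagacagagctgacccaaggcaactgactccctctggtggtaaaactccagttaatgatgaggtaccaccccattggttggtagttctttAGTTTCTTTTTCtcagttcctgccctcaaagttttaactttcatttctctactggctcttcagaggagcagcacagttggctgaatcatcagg
Aligned with gaps at the ends left unpenalised, the windows of 300 bases shared 276 of 295 aligned bases, or 93.6%. In both, the match lies on the opposite strand, ending 26 bases before the start in Trim30a and 31 bases before it in Trim30d.

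The other Trim genes had ratios from 0.532 to 1.24. Trim56, a ubiquitin ligase of antiviral signalling, had 182 HP1 alpha and 237 input counts and a ratio of 1.24 (1.02 to 1.51). The gene spans 5.18 kb, short for a gene with a ratio above 1, and its ratio was 1.70 times the median of the 200 listed genes nearest to it in span. Trim25, the ligase that modifies RIG-I, had 187 HP1 alpha counts, against 334 input counts, or 364 CPM with HP1 alpha and 402 CPM in the input, and a ratio of 0.904 (0.752 to 1.08). Trim44, a Trim protein without a RING domain, had 182 HP1 alpha counts, against 289 input counts, or 354 CPM with HP1 alpha and 348 CPM in the input, and a ratio of 1.02 (0.840 to 1.23). The intervals of Trim25 and Trim44 include 1. At the low end, Trim59 had 60 HP1 alpha counts, against 182 input counts, or 117 CPM with HP1 alpha and 219 CPM in the input, and a ratio of 0.532 (0.391 to 0.716). With 60 counts it was listed only through its input count, and a ratio below 1 was fixed by the listing limit though not its size. Trim35 had 0.719 (0.565 to 0.908) and Trim26 had 0.734 (0.551 to 0.970). Trim2, a ligase studied in neurons, had 1.10 (0.867 to 1.40), the chromatin reader Trim24 had 0.865 (0.645 to 1.15) and the ubiquitin ligase gene Trim37 had 0.759 (0.552 to 1.03). Of the 11 Trim genes, 3 had intervals above 1 and 3 below 1, or 27.3% each, beside 15.4% and 32.6% of all listed genes. Their median ratio was 0.905 and lay above 1 once scaled, at 1.04 (TMM) and 1.05 (DESeq2). Without the Trim30 pair it was 0.868, that of all listed genes being 0.867.

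The interferon-stimulated and nucleic acid effector genes were the largest role group, with 22 members, of which 1 had an interval above 1 and 9 below 1, or 4.55% and 40.9%, beside 15.4% and 32.6% of all listed genes. Their median ratio was 0.842, which stayed below 1 at 0.965 under TMM and 0.973 under DESeq2 scaling, beside 0.995 and 1.00 over all listed genes. Oasl2, of the oligoadenylate synthetase family, had 410 HP1 alpha counts, against 850 input counts, or 798 CPM with HP1 alpha and 1024 CPM in the input, and a ratio of 0.779 (0.691 to 0.877). Oas2, which makes the short adenylate chains that activate RNase L, had 302 HP1 alpha counts, against 503 input counts, or 588 CPM with HP1 alpha and 606 CPM in the input, and a ratio of 0.970 (0.838 to 1.12). Their intervals overlap, and only that of Oas2 includes 1. Oas1a, a paralog near Oas2 on chromosome 5, had 0.704 (0.508 to 0.966) and Oas1b, a flavivirus resistance gene of mice, had 0.954 (0.712 to 1.27). With 58 HP1 alpha counts, Oas1a was listed only through its input count, which fixed a ratio below 1.

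The enzymes that deaminate adenosine in double-stranded RNA diverged. Adar, the editor with an interferon-induced form, had 328 HP1 alpha counts, against 617 input counts, or 638 CPM with HP1 alpha and 743 CPM in the input, and a ratio of 0.859 (0.749 to 0.983). Adarb1, the second editing enzyme, which edits neuronal receptor RNAs and is not an interferon-stimulated gene in the usual sense, had 106 HP1 alpha counts, against 104 input counts, or 206 CPM with HP1 alpha and 125 CPM in the input, and a ratio of 1.65 (1.24 to 2.18). The ratio of Adarb1 was 1.92 times that of Adar (1.40 to 2.62). Adarb1 spans 128 kb at chr10:77290727-77418292 and Adar 39.0 kb, and relative to genes of like span their ratios were 1.57 and 1.04.

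The Ifit genes, which bind foreign RNA ends, lie side by side on chromosome 19 and all had intervals that include 1. Ifit1 had 257 HP1 alpha and 411 input counts and a ratio of 1.01 (0.861 to 1.18), Ifit2 had 0.948 (0.734 to 1.22) and Ifit3 had 0.799 (0.614 to 1.03). Ifi44, an interferon-induced gene of little-known function, had 1.07 (0.914 to 1.24), the entry-restricting membrane protein gene Ifitm3 had 1.02 (0.840 to 1.25) and Ifi35 had 0.919 (0.687 to 1.22). The paired Gbp genes, guanylate-binding defenders against pathogens inside cells, had 0.978 (0.743 to 1.28) for Gbp2 and 0.802 (0.659 to 0.974) for Gbp3. For the antiviral dynamin-like genes the ratio was 0.877 (0.624 to 1.22) for Mx1 and 0.824 (0.674 to 1.00) for Mx2. The Ifit, Gbp and Mx neighbours are related copies, and reads may be shared within each cluster.

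The remaining effector genes had ratios below 1. Ifih1, which encodes the double-stranded RNA sensor MDA5 and falls here by its Ifi prefix, had 162 HP1 alpha and 379 input counts and a ratio of 0.690 (0.571 to 0.832). The deoxynucleotide hydrolase gene Samhd1 had 172 HP1 alpha and 379 input counts and 0.733 (0.608 to 0.880), and Znfx1, a helicase-like RNA sensor, had 260 HP1 alpha and 520 input counts and 0.807 (0.693 to 0.939). Dtx3l, a ubiquitin ligase whose gene overlaps that of its partner Parp9, had 0.819 (0.610 to 1.09). Ifi27l2a had 76 HP1 alpha counts, against 241 input counts, or 148 CPM with HP1 alpha and 290.4 CPM in the input, and a ratio of 0.509 (0.388 to 0.662), the second lowest among members. Ifi27, with 0.670 (0.495 to 0.899), lies inside the annotated span of Ifi27l2a on chromosome 12, so reads of the pair cannot be assigned to one gene with certainty. Of these, the intervals of Ifih1 and Ifi27l2a also stayed below 1 under TMM and DESeq2 scaling.

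Of the genes kept as pattern receptors, Ddx58, which encodes RIG-I, had 272 HP1 alpha counts, against 561 input counts, or 529 CPM with HP1 alpha and 676 CPM in the input, and a ratio of 0.783 (0.675 to 0.907). The ratio of Ifih1 over that of Ddx58 was 0.882 (0.692 to 1.12), an interval that includes 1. Nlrc5, the activator of class I histocompatibility genes, had 193 HP1 alpha counts, against 315 input counts, or 376 CPM with HP1 alpha and 379.5 CPM in the input, and a ratio of 0.989 (0.823 to 1.19). No Toll-like receptor gene was listed.

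**Figure D2:**
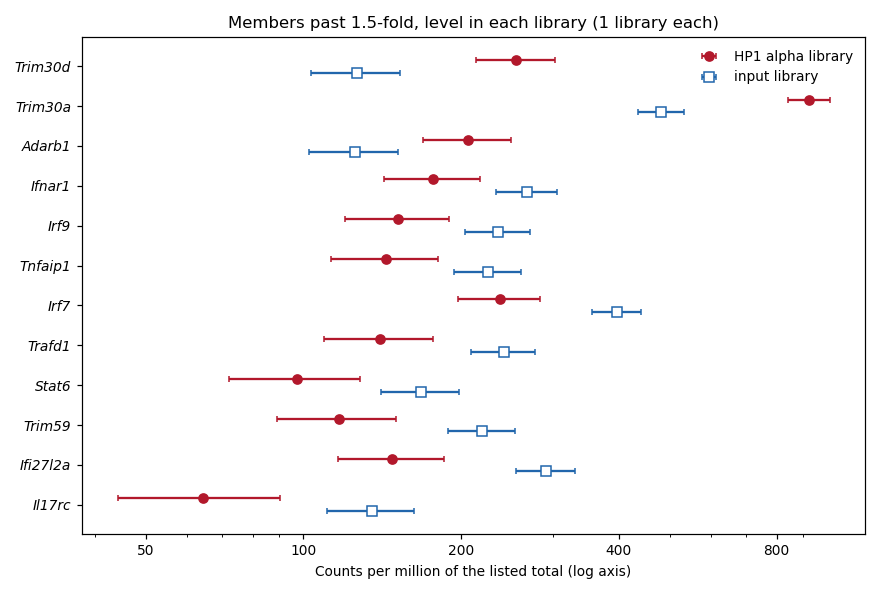
Counts per 1000000 of the listed total (log axis) in the HP1 alpha library (filled circles) and the input library (open squares) for the 12 members past 1.5-fold, ordered by ratio, with exact 95% Poisson intervals. Trim30d, Trim30a and Adarb1 are further right with HP1 alpha, and the other 9 are further right in the input.

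Among receptors and ligands, 11 members had a median ratio of 0.810, which stayed below 1 under TMM (0.929) and DESeq2 (0.937) scaling. Intervals lay above 1 for 1 of the 11 and below 1 for 5, or 9.09% and 45.5%, beside 15.4% and 32.6% of all listed genes. Of those 5, Ifngr2 and Il17rc could only be below 1 at their HP1 alpha counts, given the listing limit. Il6st, the shared signalling chain of the interleukin 6 family, had 495 HP1 alpha counts, against 968 input counts, or 963 CPM with HP1 alpha and 1166 CPM in the input, and a ratio of 0.826 (0.740 to 0.921). The type I interferon receptor gene Ifnar1 had 91 HP1 alpha counts, against 222 input counts, or 177 CPM with HP1 alpha and 267 CPM in the input, and a ratio of 0.662 (0.513 to 0.849). The other chain, Ifnar2, had 0.820 (0.597 to 1.12). Ifngr2, of the interferon gamma receptor, had 0.682 (0.496 to 0.929) and Il10rb, a chain of the interleukin 10 receptor, had 0.792 (0.555 to 1.12). These 4 genes lie together on chromosome 16 and were all listed through their input counts, which fixed a ratio below 1 for Ifngr2 and Il10rb. Relative to genes of like span the ratios were 0.833 for Ifnar1, 1.04 for Ifnar2, 0.882 for Ifngr2 and 1.02 for Il10rb, on both sides of 1. Under TMM or DESeq2 scaling the interval of Ifnar1 alone among them stayed below 1, and relative to genes of like span it included 1.

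The interleukin 1 pathway split by gene. The receptor gene Il1r1 had 127 HP1 alpha and 143 input counts and a ratio of 1.43 (1.12 to 1.83), and the co-receptor gene Il1rap had 79 HP1 alpha and 101 input counts and 1.26 (0.929 to 1.71). The receptor antagonist gene Il1rn had 135 HP1 alpha counts, against 294 input counts, or 263 CPM with HP1 alpha and 354 CPM in the input, and a ratio of 0.742 (0.600 to 0.912). The ratio of Il1r1 was 1.93 times that of Il1rn (1.39 to 2.68). Il1r1 and Il1rap span 93.7 and 149 kb and Il1rn spans 14.6 kb, and relative to genes of like span the ratios were 1.52, 1.13 and 0.977. Il17rc, a chain of the interleukin 17 receptor at chr6:113471455-113483163, had 33 HP1 alpha counts, against 112 input counts, or 64.2 CPM with HP1 alpha and 135 CPM in the input, and the lowest ratio of any member, 0.476 (0.313 to 0.707). Its 33 HP1 alpha counts were the fewest of any member, and at that count the listing limit fixed a ratio below 1. Relative to genes of like span its ratio was 0.673. Il13ra1, a chain of the interleukin 13 receptor, had 0.823 (0.580 to 1.16), and Il4i1, an amino acid oxidase induced by interleukin 4 and not a receptor, had 0.807 (0.604 to 1.07).

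Of 8 STAT and IRF genes, 0 had intervals above 1 and 4 below 1, beside 15.4% and 32.6% of all listed genes, and the ratio itself was above 1 for 1 of the 8, beside 30.9%. The median of 0.817 stayed below 1 under TMM (0.937) and DESeq2 (0.944) scaling. Irf7, the inducible driver of type I interferon transcription, had 122 HP1 alpha counts, against 329 input counts, or 237 CPM with HP1 alpha and 396 CPM in the input, and a ratio of 0.599 (0.482 to 0.739). Irf9, the DNA-binding part of the interferon-activated complex, had 78 HP1 alpha counts, against 195 input counts, or 152 CPM with HP1 alpha and 235 CPM in the input, and 0.646 (0.490 to 0.844). Stat6, the factor of interleukin 4 and 13 signalling, had 50 HP1 alpha counts, against 139 input counts, or 97.3 CPM with HP1 alpha and 167 CPM in the input, and 0.581 (0.412 to 0.808), and its gene overlaps the listed gene Nab2. With 50 counts, Stat6 too was listed through its input count, which fixed a ratio below 1. The intervals of Irf7, Irf9 and Stat6 stayed below 1 under TMM and DESeq2 scaling. Relative to genes of like span the ratios were 0.820, 0.885 and 0.747, with intervals that included 1.

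Stat3, Irf1, Stat5b and Irf2bp2 had intervals that include 1, although that of Stat3 lay above 1 under TMM and DESeq2 scaling. Stat3, the factor of interleukin 6 signalling, had 234 HP1 alpha counts, against 327 input counts, or 455 CPM with HP1 alpha and 394 CPM in the input, and a ratio of 1.16 (0.973 to 1.37). Irf1 had 0.856 (0.670 to 1.09), and the ratio of Irf7 was 0.700 times that of Irf1 (0.505 to 0.970). Stat5b had 0.827 (0.628 to 1.08) and Irf2bp2, a partner of Irf2 rather than an IRF itself, had 0.848 (0.662 to 1.08).

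The TNF, TRAF and NF-kappaB genes numbered 15, with 1 interval above 1 and 5 below, or 6.67% and 33.3%, beside 15.4% and 32.6% of all listed genes. Their median of 0.883 lay above 1 once scaled, at 1.01 (TMM) and 1.02 (DESeq2). Nfkb1, which encodes the p105 precursor of p50, had 244 HP1 alpha counts, against 387 input counts, or 475 CPM with HP1 alpha and 466 CPM in the input, and a ratio of 1.02 (0.864 to 1.20). Rela, the p65 subunit, had 0.841 (0.642 to 1.10), Relb of the alternative pathway 0.879 (0.621 to 1.23), the kinase gene Ikbkb 0.978 (0.704 to 1.35) and the inducible inhibitor-like Nfkbiz 0.953 (0.679 to 1.33). All 5 of these NF-kappaB intervals include 1.

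Adaptors and receptors of the TNF pathway went both ways. Traf3, a brake on alternative NF-kappaB signalling and a link to interferon induction, had 147 HP1 alpha counts, against 183 input counts, or 286 CPM with HP1 alpha and 220.5 CPM in the input, and a ratio of 1.30 (1.04 to 1.62). Traf2, an adaptor of TNF receptor signalling, had 49 HP1 alpha and 118 input counts and 0.671 (0.470 to 0.943), and it was listed only through its input count, which fixed a ratio below 1. Traf3 spans 101 kb and Traf2 29.0 kb. Traf7 had 0.697 (0.531 to 0.908). Trafd1, a feedback inhibitor of innate signalling, had 72 HP1 alpha counts, against 200 input counts, or 140.1 CPM with HP1 alpha and 241 CPM in the input, and 0.581 (0.438 to 0.765). Of the TNF receptors, Tnfrsf1b had 127 HP1 alpha counts, against 197 input counts, or 247 CPM with HP1 alpha and 237 CPM in the input, and 1.04 (0.826 to 1.31), and Tnfrsf1a had 0.694 (0.533 to 0.898). Genes named for induction by TNF included Tnfaip1, an adaptor of a cullin ubiquitin ligase, with 74 HP1 alpha counts, against 187 input counts, or 144 CPM with HP1 alpha and 225 CPM in the input, and 0.639 (0.481 to 0.841). Tnfaip2 had 0.873 (0.638 to 1.18) and Tnfaip8 1.26 (0.998 to 1.58). Under TMM and DESeq2 scaling the intervals of Trafd1 and Tnfaip1 stayed below 1. Relative to genes of like span the 2 ratios were 0.777 and 0.873, with intervals that included 1.

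The 3 galectin genes and the 5 H2 genes showed no interval above 1. Lgals9, a galectin with immune-regulating ligands, had 202 HP1 alpha counts, against 317 input counts, or 393 CPM with HP1 alpha and 382 CPM in the input, and 1.03 (0.858 to 1.23). Lgals3bp, a secreted galectin ligand rather than a galectin, had 177 HP1 alpha counts, against 378 input counts, or 344 CPM with HP1 alpha and 455 CPM in the input, and 0.756 (0.629 to 0.906). Lgals8, whose protein marks damaged vesicles, had 56 HP1 alpha counts, against 115 input counts, or 109 CPM with HP1 alpha and 139 CPM in the input, and 0.786 (0.561 to 1.09). The classical class I genes present peptides to T cells. H2-K1 had 446 HP1 alpha counts, against 816 input counts, or 868 CPM with HP1 alpha and 983 CPM in the input, and 0.883 (0.785 to 0.992), and H2-D1 had 398 HP1 alpha counts, against 703 input counts, or 774 CPM with HP1 alpha and 847 CPM in the input, and 0.914 (0.806 to 1.04). The nonclassical H2-Q4 had 151 HP1 alpha counts, against 335 input counts, or 294 CPM with HP1 alpha and 404 CPM in the input, and 0.728 (0.597 to 0.885), H2-Q6 had 0.707 (0.513 to 0.965) and H2-T22 had 0.829 (0.592 to 1.15). The H2 genes are polymorphic near-copies of each other, so their separate counts are uncertain. Of the 5, 3 had intervals below 1 as measured, H2-Q6 among them with a ratio that the listing limit fixed below 1, and 0 under TMM or DESeq2 scaling.

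**Figure D3:**
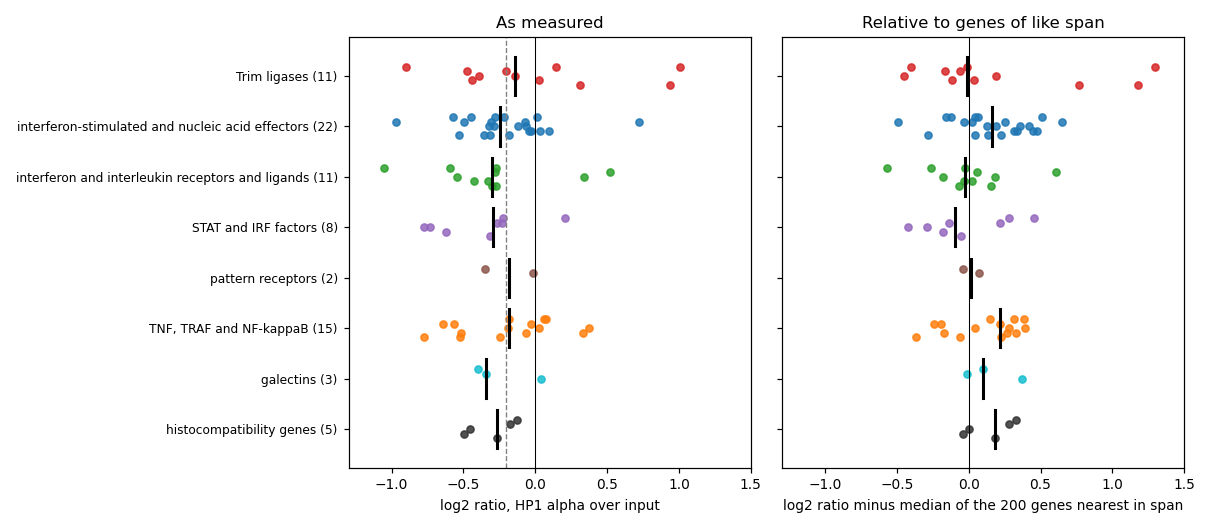
The log2 ratio of HP1 alpha over input for each member by role (number of members in brackets), as measured (left) and minus the median of the 200 listed genes nearest in span (right). Black bars are medians and the dashed line is the median of all listed genes (-0.21). On the right, Trim30d at 1.30 and Trim30a at 1.18 lie furthest from 0.

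The members are short genes, and the ratio moved with gene span among them as over the whole table. Their median span was 19.6 kb, beside 48.2 kb for all listed genes with a known span. Of the 40 members of up to 20 kb, 4 had a ratio above 1 and the median ratio was 0.798. Of the 20 members between 20 and 50 kb, 3 had a ratio above 1, with a median of 0.826. Above 50 kb it was 11 of 17, with a median of 1.05. The same medians over all listed genes were 0.738, 0.811 and 1.03. Across the 77 members Spearman's rho between span and log2 ratio was 0.41, beside 0.61 over 3089 listed genes, a description across genes that share both libraries.

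Set against genes of like span, the members lay slightly above rather than below the middle. Their median log2 ratio was 0.062, with 47 of 77 above 0, beside 0.0047 and 1565 of 3089 for all listed genes. Trim30d and Trim30a were then past 2-fold, at 2.46 and 2.26 times the median of like-span genes, with 0 lower, beside 1.23% of all listed genes higher and 0.129% lower. Past 1.5-fold were also Trim56 at 1.70, Adarb1 at 1.57 and Il1r1 at 1.52, which makes 5 of 77, and 0 members were lower, beside 5.34% higher and 2.4% lower of all listed genes. Intervals lay above the like-span median for 15 members, among them Oas2, Ifit1, Ifi44, Ifitm3, H2-K1 and H2-D1, and below it for 4, Trim37, Ifih1, Il17rc and Ifi27l2a, beside 15.4% and 11.8% of all listed genes. The effector genes had a median of 0.16 on this log2 scale, with 17 of 22 above 0, the TNF, TRAF and NF-kappaB genes 0.22, and the STAT and IRF genes -0.093.

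**Figure D4:**
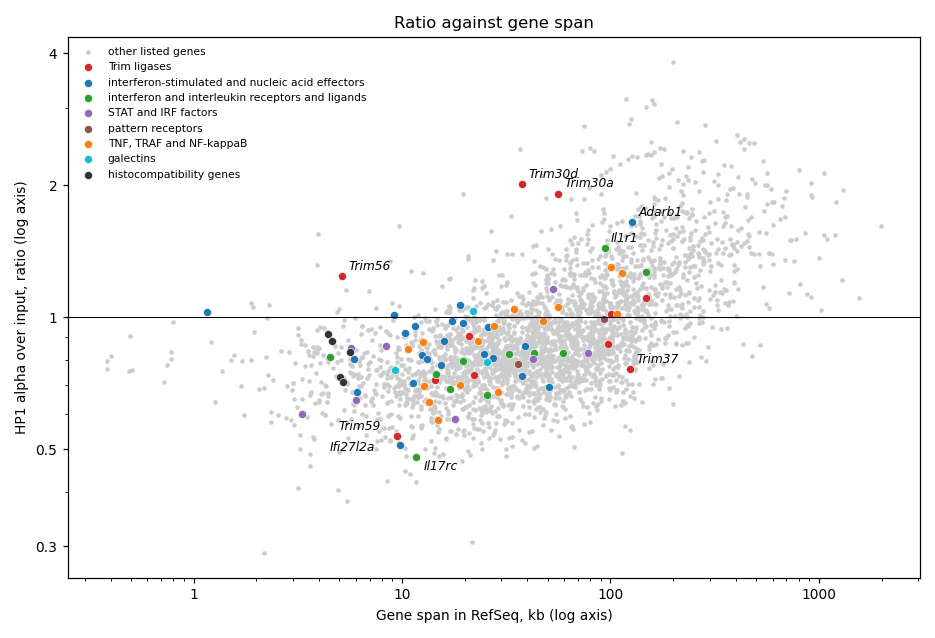
Ratio of HP1 alpha over input against gene span in RefSeq GRCm38.p6 (both log axes), with members coloured by role over the other listed genes in grey. Most members lie at the short end, with a median of 19.6 kb, while Trim30d, Trim30a and Trim56 lie above most genes of their span.

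Some members shared a promoter feature. The symbol rule did not use it directly, but several of its prefixes name interferon-stimulated genes, so the feature is not independent of the rule. RefSeq start windows were at hand for 61 of the 77 members. The ISRE match GAAANNGAAACT was found in 10 of these 61, or 16.4%, against 0.362% of the 2488 other listed genes with a window, 0.303% of all 27025 genes with one and 0.271% of all 32851 windows. The STAT dimer site searched as TTCNNNGAA was found in 11 members, or 18.0%, against 7.80% of the other listed genes. It was in 9.55% of all genes with a window and 8.30% of all windows. An NF-kappaB site searched as GGGANNTTCC was found in 4 members, or 6.56%, against 2.09% of the other listed genes. It was in 1.63% of all genes with a window and 1.47% of all windows. Both strands were searched, and a match is a description of letters. The ISRE matches other than those of the Trim30 pair are shown in 60-base stretches of the windows, 5′ to 3′ along the gene, with the matches in capitals, because they show what these genes have in common. They come from chr19:34640759-34640818 (Ifit1, plus strand), chr19:34583347-34583406 (Ifit3, plus strand), chr3:142620578-142620637 (Gbp2, plus strand), chr3:142559973-142560032 (Gbp3, plus strand), chr5:120907510-120907569 (Oas1a, minus strand), chr7:141010707-141010766 (Ifitm3, minus strand), chr4:40239790-40239849 (Ddx58, minus strand) and chr17:36042900-36042959 (H2-T22, minus strand).
Ifit1: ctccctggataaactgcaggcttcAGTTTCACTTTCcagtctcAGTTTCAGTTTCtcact
Ifit3: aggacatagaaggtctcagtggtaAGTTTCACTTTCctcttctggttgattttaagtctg
Gbp2: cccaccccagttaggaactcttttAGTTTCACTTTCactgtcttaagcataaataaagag
Gbp3: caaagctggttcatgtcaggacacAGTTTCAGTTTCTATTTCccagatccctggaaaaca
Oas1a: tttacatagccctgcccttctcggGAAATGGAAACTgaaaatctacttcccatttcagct
Ifitm3: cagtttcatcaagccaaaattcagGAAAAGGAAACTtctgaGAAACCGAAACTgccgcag
Ddx58: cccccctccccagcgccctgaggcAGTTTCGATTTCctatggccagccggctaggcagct
H2-T22: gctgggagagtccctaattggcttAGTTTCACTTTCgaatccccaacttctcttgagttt
Ifit1, Gbp3 and Ifitm3 hold 2 matches each, which overlap in Gbp3. In Ddx58 and Ifitm3 the matches lie after the annotated start that their window uses. The Ifit3 stretch and most of the Oas1a match lie before that start but inside the annotated span of the gene. The 10 genes with a match had ratios from 0.704 to 2.01, with a median of 0.903 and 4 above 1. The 51 members with a window and no match had a median of 0.823 and 11 above 1. The Trim30 pair held both ratios past 1.5-fold among the 10, and the other 8 ran from 0.704 to 1.02.

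Other genes of these pathways came from a list outside the symbol rule. Of its 80 symbols outside the rule, some of them alternative names of the same gene, 36 were listed. Their median ratio was 0.828, beside 0.867 over all listed genes. Together they held 1.76% of the HP1 alpha counts and 1.75% of the input counts, beside the members' 2.14% and 2.41%. Past 2-fold 0 were higher and 0 lower, and past 1.5-fold 0 were higher and 6 lower, or 16.7%, beside the 12.3% background. Intervals lay above 1 for 5 and below 1 for 14, or 13.9% and 38.9%, beside 15.4% and 32.6% of all listed genes. Relative to genes of like span, intervals lay above 1 for 8 of the 36 and below 1 for 1, Tapbp. The shares over all listed genes were 15.4% and 11.8%. Rnf213, a giant ubiquitin ligase with antimicrobial activity, held 3507 of the list's 9042 HP1 alpha counts and had a ratio of 1.30 (1.24 to 1.35). B2m, the light chain of class I molecules, had 497 HP1 alpha and 696 input counts and 1.15 (1.03 to 1.30). Tapbp, the tapasin gene of the peptide-loading complex, had 290 HP1 alpha and 796 input counts and 0.588 (0.513 to 0.674). The RIG-I-associated helicase gene Ddx60 had 309 HP1 alpha and 386 input counts and 1.29 (1.11 to 1.51), the receptor kinase Jak1 had 359 HP1 alpha and 485 input counts and 1.20 (1.04 to 1.37), and Map3k14, the kinase that Traf3 holds in check, had 119 HP1 alpha and 148 input counts and 1.30 (1.01 to 1.66). Ddx60 and Map3k14 were named here because of these values. The double-stranded RNA kinase gene Eif2ak2 had 316 HP1 alpha and 558 input counts and 0.915 (0.794 to 1.05), and Parp14, an ADP-ribosyltransferase, had 338 HP1 alpha and 547 input counts and 0.998 (0.869 to 1.14).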

How the data were processed

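RNA crosslinked to HP1 alpha was measured by eCLIP in NIH3T3 cells, with 1 library per group. The authors deposited 1 table of read counts per gene with a fold ratio, which per the file headers is normalized to total mapped reads and equals the count ratio times 1.66. Per the submitters' processing notes STAR 2.6.0c, featureCounts and GRCm38 were used. The handling of strand, counted feature, multi-mapping reads and duplicates is not given in the sources used here. Its HP1 counts were taken as the antibody sample, by name. Its mock counts were taken as the Input sample, the only one labelled with no antibody. This is an assumption, because the names mock and Input differ. There were 0 other columns of sample values.

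Ratios of HP1 alpha over input used listed totals, with Clopper-Pearson 95% intervals from scipy 1.17.1. A call needed 2-fold on counts with 0.5 added and an interval that excludes 1. Differences between 2 genes are exact conditional ratios of ratios, given as descriptions because the pairs were chosen with their values known. Listed counts of 33 to 495 per member gave a median interval with an upper bound 1.68 times the lower. With 1 library a group no p-value was given. On simulated data the call rule found 50 of 50 genes seeded at each of 3-fold, 4-fold and 0.25-fold. At 0.4-fold it found 41 of 50, and it called 0 of 2934 genes seeded with no change. No gene was seeded at 2-fold, and 1 library a group gives no spread between libraries to draw on. These numbers are therefore not an error rate for the calls in the real libraries.

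Spans and promoter windows came from RefSeq GRCm38.p6, to which members were matched by symbol or synonym. Of the members, 4 overlapped another listed gene and 33 any annotated gene. All 77 had at least 100 input counts, and 14 had so few HP1 alpha counts, 60 or fewer, that the listing limit of 100 fixed a ratio below 1. Full values are given for the 3 members of each role with the highest mean CPM and for those past 1.5-fold. The values of 2 members are not reported here, though counts over all members include them. Alternatives were TMM (edgeR 4.0.16) and DESeq2 1.42.0 factors, the authors' constant, genes of like span, a minimum of 400 counts over both libraries, a pseudocount of 5 counts, members without a listed overlap and other folds. The members, lists and tests were chosen with earlier results of these data known.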

Additional observations from a re-analysis of the deposited data

How the results depend on the processing

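No paired analysis was possible because HP1 alpha and input were sequenced as 1 library each. The number of higher members, 1 as reported, was 2 under TMM and under DESeq2 scaling and 2 relative to genes of like span (Trim30a and Trim30d each time), 0 once 400 counts were required, 0 after adding 5 counts, 3 at 1.5-fold and 6 with no fold. The number of lower members, 1 as reported (Il17rc), was 0 under TMM, DESeq2, like-span, minimum-count and pseudocount settings, 9 at 1.5-fold and 31 with no fold. The median log2 ratio, -0.27 as reported, was -0.072 under TMM, -0.060 under DESeq2, -0.20 at the minimum of 400 counts, -0.22 with the larger pseudocount and turned to 0.062 relative to genes of like span. The number of members with a ratio above 1, 18 as reported, was 32 under TMM, 33 under DESeq2, 47 relative to genes of like span and 9 of 28 at the minimum of 400 counts. With settings chosen after seeing the data, 0 members were lower without the 14 whose ratio the listing limit fixed, and 0 were higher without the Trim30 pair. The authors' constant and the removal of overlapping members left both counts at 2-fold unchanged, while with no fold the authors' constant gave 8 higher and 28 lower. Of the 77 single ratios, 71 stayed within their own interval under TMM, 69 under DESeq2, 77 with the authors' constant and 34 relative to genes of like span. Members near 100 counts have the widest intervals, up to 2.26 times from bound to bound, and a gene under 100 counts in both libraries was not seen. The cause of these shifts was not tested.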

Other observations

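Genes that load peptides onto class I histocompatibility molecules, from the pathway list outside the symbol rule, went both ways. Beside B2m, at 1.15 (1.03 to 1.30), and Tapbp, at 0.588 (0.513 to 0.674), the peptide transporter genes had 0.629 (0.503 to 0.782) for Tap1 and 0.638 (0.467 to 0.861) for Tap2, and the immunoproteasome gene Psmb8 had 0.868 (0.652 to 1.15). The intervals of Tapbp, Tap1 and Tap2 lie below that of B2m, and those of Tapbp and Tap1 also below that of the heavy chain gene H2-D1, at 0.914 (0.806 to 1.04). Relative to genes of like span, Tapbp kept an interval below 1, while those of Tap1 and Tap2 included 1.

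Further sensors and effectors of the same list lay below 1 as measured. Relative to genes of like span their intervals all included 1, with log2 ratios of -0.35 for Zbp1, -0.17 for Parp10, 0.11 for Rsad2 and -0.21 for Pias4. Zbp1, a sensor of left-handed nucleic acid, had 59 HP1 alpha and 170 input counts and 0.560 (0.410 to 0.758), Parp10 had 126 HP1 alpha and 318 input counts and 0.640 (0.516 to 0.789), and the antiviral radical enzyme gene Rsad2 had 139 HP1 alpha and 284 input counts and 0.790 (0.641 to 0.972). Pias4, an inhibitor of STAT signalling, had 0.633 (0.428 to 0.921). With 59 and 40 HP1 alpha counts, Zbp1 and Pias4 were listed only through their input counts. All genes in these 2 paragraphs were picked with their values in view.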
